A study of Mus musculus with 9 samples.

Results

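Genes that set, read or remove DNA methylation, or that set the repressive histone mark next to it, were followed in regenerating mouse liver, namely *Dnmt1*, *Dnmt3a*, *Dnmt3b*, *Uhrf1*, *Uhrf2*, *Hells*, *Ezh2*, *Tet1*, *Tet2* and *Tet3*. They were chosen by name, and all 10 of them were among the 43346 genes of the count table. Bulk liver RNA was sequenced from 12-week-old C57/BL6 mice. The vehicle 0 h group was liver removed at surgery from vehicle-treated mice, the vehicle 40 h group was the liver remnant of vehicle-treated mice 40 h after a 70% hepatectomy, and the NSC 40 h group was the remnant 40 h after the same surgery under NSC-87877, with 3 libraries in each group. NSC-87877 (NSC) inhibits the tyrosine phosphatase SHP2 and also SHP1, and was given at 7.5 mg/kg 2 times a day (15 mg/kg per day), starting 12 h before surgery by the labels and 1 day before surgery by the study's methods. All 3 groups had surgery, and vehicle or drug was given to every mouse before it. Liver removed at surgery from NSC-treated mice was not analysed here, so an effect of the drug before the hepatectomy cannot be told apart from an effect on the remnant. The labels number the libraries without naming the mouse of each, and p-values weigh a group difference against the spread between these libraries.

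Total counts were 31187349 to 33943842 in the vehicle 0 h libraries, 27956396 to 42887589 at vehicle 40 h and 23997363 to 30201051 at NSC 40 h. All 8 hepatocyte markers were present in every library, and their summed level was 115741 to 120988, 94107 to 129333 and 101416 to 115105 CPM (counts scaled to the size of the library) in the same order. One library stood apart from its group. The summed level of 10 genes of the G2 and M phases was 180 CPM in NSC replicate 1, below the 324 to 410 CPM of the vehicle 40 h libraries, while NSC libraries reached 1019 CPM. Calls between the treatments that changed without NSC replicate 1 are given for the 9 genes tested and counted for the lists. In bulk tissue, fewer cells of a type and less RNA per cell cannot be told apart.

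DNA methylation at CpG sites is copied after each round of replication. UHRF1 recognizes the hemimethylated site behind the fork, modifies histone H3 with ubiquitin, and so recruits the maintenance methyltransferase DNMT1, while the remodeler HELLS opens heterochromatin for this step. UHRF2 is a close relative of UHRF1 that does not replace it in maintenance. DNMT3A and DNMT3B set methylation on unmethylated sites, the TET dioxygenases oxidize 5-methylcytosine as the start of its removal, and EZH2 is the catalytic subunit of Polycomb repressive complex 2 (PRC2), which trimethylates lysine 27 of histone H3. UHRF1, DNMT1, HELLS and EZH2 are abundant in dividing cells, and *Uhrf1* is low in quiescent hepatocytes and induced when they enter the cell cycle.

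Sequence upstream of the annotated starts is shown for 4 of the 5 genes that were called higher in both 40 h groups, because these genes moved together. Windows of 250 bases before each RefSeq start (GRCm38.p6, 32851 windows of all genes) were searched on both strands for E2F-type letters (TTCCCGC in its usual form, the variant TTCGCGC, the further variant TTGCCGC and the last variant TTGGCGC), for cell cycle homology region (CHR) letters (TTTGAA in its usual form and the variant TTCGAA) and for CCAAT. The E2F-type letters were found in 7.9% of all windows, the CHR letters in 17.1% and CCAAT in 33.8%, and the motifs as searched did not overlap one another in the windows shown. The stretches shown are chr17:56303087-56303336 and chr17:56304063-56304312 (plus strand) for the 2 *Uhrf1* starts, chr19:30030263-30030512 (plus strand) for *Uhrf2*, chr19:38930740-38930944 (plus strand) for *Hells* and chr6:47595031-47595183 (minus strand) for *Ezh2*. They run 5′ to 3′, capitals mark the matches, and at most 30 exonic bases were kept in each.
Uhrf1 upstream start: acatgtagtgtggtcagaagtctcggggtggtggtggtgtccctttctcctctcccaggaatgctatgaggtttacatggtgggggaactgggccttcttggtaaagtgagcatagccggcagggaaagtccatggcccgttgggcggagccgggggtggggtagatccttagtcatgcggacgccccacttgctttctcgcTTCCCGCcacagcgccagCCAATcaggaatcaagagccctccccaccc
Uhrf1 downstream start: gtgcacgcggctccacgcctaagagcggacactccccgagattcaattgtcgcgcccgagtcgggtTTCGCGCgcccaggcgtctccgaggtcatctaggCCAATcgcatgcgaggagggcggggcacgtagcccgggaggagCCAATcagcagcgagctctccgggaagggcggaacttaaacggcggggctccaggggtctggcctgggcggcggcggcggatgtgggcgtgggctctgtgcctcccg
Uhrf2: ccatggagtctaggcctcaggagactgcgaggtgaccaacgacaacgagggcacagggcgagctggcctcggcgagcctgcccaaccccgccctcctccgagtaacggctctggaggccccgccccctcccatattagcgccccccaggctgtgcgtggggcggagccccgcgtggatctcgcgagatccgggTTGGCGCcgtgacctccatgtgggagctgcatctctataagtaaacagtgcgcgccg
Hells: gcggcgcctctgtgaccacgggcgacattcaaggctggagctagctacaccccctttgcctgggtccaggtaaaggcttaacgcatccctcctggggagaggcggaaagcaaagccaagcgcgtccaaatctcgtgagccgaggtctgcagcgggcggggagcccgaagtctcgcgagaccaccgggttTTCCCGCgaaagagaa
Ezh2: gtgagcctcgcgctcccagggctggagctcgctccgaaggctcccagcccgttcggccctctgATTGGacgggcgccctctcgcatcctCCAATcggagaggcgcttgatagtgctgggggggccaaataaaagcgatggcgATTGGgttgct

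Each *Uhrf1* window held 1 E2F-type match, at 48 to 42 bases before the upstream start and at 184 to 178 bases before the downstream start. *Uhrf2* held 1 such match at 57 to 51 bases. *Hells* held 2, at 61 to 55 and at 43 to 37 bases, both within the 75 bases of its window that are annotated as first exon, and the second lies outside the stretch shown. *Ezh2* held no E2F-type match and 3 CCAAT matches. *Dnmt1* has 3 RefSeq starts, and 2 E2F-type matches were found at the third (window chr9:20952624-20952873, minus strand, largely exonic and therefore not printed), with none at the other two. No E2F-type match was found in the windows of *Dnmt3a*, *Dnmt3b*, *Tet1*, *Tet2* or *Tet3*. However, the only windows of *Tet1* and *Tet3* start 11794 and 17406 bases from the gene start in the count table. Those of *Dnmt3a* start 973, 1153 and 85737 bases from it, and the *Dnmt1* window with matches 7265 bases. Sequence just before the table starts of *Tet1*, *Tet3* and *Dnmt3a* was thus not searched, and a difference in E2F-type letters between rising and other genes was not tested. CHR letters were found only at the outermost *Dnmt1* start (199 to 194 bases) and in the *Dnmt3b* window (128 to 123 bases). Besides *Ezh2*, CCAAT was found at both *Uhrf1* starts, at the outermost *Dnmt1* start (4 matches) and at the *Dnmt1* start with E2F-type matches (3 matches). It was also found in the *Tet3* window (31 to 27 bases). CHR and CCAAT letters were thus not limited to the rising genes. CpG sites per window ranged from 2 at the outermost *Dnmt1* start to 51 at *Tet2*, against a median of 6 over all windows (quartiles 2 and 16). A match is a string of letters and no evidence of binding.

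*Uhrf1* (ENSMUSG00000001228, chr17:56303321-56323486, plus strand) had the largest change of the 9 genes tested, in both comparisons with vehicle 0 h. At vehicle 0 h its level was 0.158, 0.519 and 0.198 CPM (5, 17 and 6 counts). At vehicle 40 h it was 11.5, 15.8 and 8.08 CPM, and at NSC 40 h 9.63, 12.8 and 8.18 CPM. Every 40 h library was above every vehicle 0 h library, and the 2 treatments overlapped. Here and for the genes below, the share of all genes tested whose 40 h libraries lie apart from vehicle 0 h was not counted. The log2 fold change from vehicle 0 h was 5.31 with vehicle (standard error 0.42, edgeR quasi-likelihood adjusted p = 2.48e-05) and 5.10 with NSC (standard error 0.42, edgeR adjusted p = 2.16e-05). Both comparisons use the same 3 vehicle 0 h libraries. With so few counts there, *Uhrf1* passed the filter on low counts only through its 40 h libraries. With 1 library left out the change lay between 5.01 and 6.02 with vehicle and between 4.80 and 5.82 with NSC, and both upper values were those without vehicle 0 h replicate 2.

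*Uhrf2* (ENSMUSG00000024817, chr19:30030513-30093722, plus strand) was already expressed at vehicle 0 h, at 28.0, 22.8 and 29.0 CPM. Its level was 36.9, 39.5 and 39.7 CPM at vehicle 40 h and 47.3, 64.3 and 50.6 CPM at NSC 40 h. The 3 groups did not overlap, and the NSC libraries were the highest. *Uhrf2* rose by a log2 fold change of 0.54 with vehicle (standard error 0.15, edgeR adjusted p = 0.0234) and of 1.02 with NSC (standard error 0.15, edgeR adjusted p = 0.00057). The call with vehicle was lost in 5 of 9 fits that left out 1 library, namely vehicle 0 h replicate 1 (adjusted p = 0.0564) or 2 (0.0885) and vehicle 40 h replicate 1 (0.0517), 2 (0.0605) or 3 (0.0638), and after correction for GC content (log2 fold change 0.41, adjusted p = 0.0511). Adjusted p ranged from 0.0103 to 0.0885 over its 18 alternatives.

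*Dnmt1* (ENSMUSG00000004099, chr9:20907206-20959888, minus strand) was at 11.9, 11.2 and 13.3 CPM at vehicle 0 h. It was at 26.3, 35.4 and 22.4 CPM at vehicle 40 h and at 21.3, 24.8 and 18.3 CPM at NSC 40 h. All 6 libraries at 40 h were above all 3 at vehicle 0 h, and the treatments overlapped. *Dnmt1* rose by 1.21 on the log2 scale with vehicle (standard error 0.19, edgeR adjusted p = 0.00104) and by 0.82 with NSC (standard error 0.19, edgeR adjusted p = 0.00556). Both calls held in all 18 alternatives.

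*Hells* (ENSMUSG00000025001, chr19:38930915-38971051, plus strand) encodes a helicase-like remodeler of the SNF2 family. It was at 0.979, 0.855 and 1.06 CPM at vehicle 0 h, at 5.61, 6.43 and 6.79 CPM at vehicle 40 h and at 13.0, 13.5 and 11.3 CPM at NSC 40 h. The groups were fully apart, with the NSC libraries highest. *Hells* rose by 2.70 on the log2 scale with vehicle (standard error 0.21, edgeR adjusted p = 1.38e-05) and by 3.71 with NSC (standard error 0.21, edgeR adjusted p = 1.88e-06).

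The de novo methyltransferases did not pass the test in either comparison. *Dnmt3a* (ENSMUSG00000020661, chr12:3806007-3914443, plus strand) was at 19.1 to 23.7 CPM at vehicle 0 h, 21.1 to 23.1 CPM at vehicle 40 h and 16.4 to 22.8 CPM at NSC 40 h, and the groups overlapped. Its log2 fold change from vehicle 0 h was 0.04 with vehicle (95% interval -0.29 to 0.38) and -0.15 with NSC (95% interval -0.49 to 0.19). *Dnmt3b* (ENSMUSG00000027478, chr2:153649450-153687730, plus strand) varied more among the vehicle 0 h libraries, at 4.90, 1.68 and 7.36 CPM, than within either 40 h group. It was at 2.70 to 4.35 CPM at vehicle 40 h and 2.82 to 4.24 CPM at NSC 40 h. Its log2 fold changes were -0.45 with vehicle (95% interval -1.39 to 0.49) and -0.33 with NSC (95% interval -1.28 to 0.61). A change of *Dnmt3b* anywhere within these intervals remains possible.

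*Ezh2* (ENSMUSG00000029687, chr6:47530274-47595341, minus strand) was at 3.85, 4.82 and 4.65 CPM at vehicle 0 h and 13.9, 15.4 and 11.2 CPM at vehicle 40 h. The NSC 40 h libraries were spread widely, at 11.5, 30.3 and 18.5 CPM, and the lowest was replicate 1, the library with the low G2 and M genes. *Ezh2* rose by 1.60 with vehicle (standard error 0.30, edgeR adjusted p = 0.00352) and by 2.17 with NSC (standard error 0.31, edgeR adjusted p = 0.000486) on the log2 scale. Without NSC replicate 1 the latter was 2.46 (edgeR adjusted p = 3.61e-06).

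Of the TET genes, *Tet3* with NSC was the one call. *Tet1* (ENSMUSG00000047146, chr10:62804570-62899118, minus strand) had 0 to 5 counts in each library and failed the filter on low counts, so that it was not tested. Its one library at 0, vehicle 0 h replicate 3, allows a level of up to 0.0962 CPM by counting error alone. *Tet2* (ENSMUSG00000040943, chr3:133463679-133544390, minus strand) was at 11.7 to 16.4 CPM at vehicle 0 h, 9.26 to 12.7 CPM at vehicle 40 h and 9.24 to 12.7 CPM at NSC 40 h. Its log2 fold changes of -0.42 (standard error 0.19, edgeR adjusted p = 0.135) and -0.46 (standard error 0.19, edgeR adjusted p = 0.0872) did not pass. *Tet3* (ENSMUSG00000034832, chr6:83362373-83459084, minus strand) was at 17.2, 23.7 and 21.6 CPM at vehicle 0 h, at 15.6, 16.9 and 12.9 CPM at vehicle 40 h and at 15.0, 14.0 and 12.5 CPM at NSC 40 h. All 40 h libraries were below all vehicle 0 h libraries. *Tet3* fell by 0.59 on the log2 scale with NSC (standard error 0.17, edgeR adjusted p = 0.0177), while its change of -0.46 with vehicle (standard error 0.17, edgeR adjusted p = 0.0654) did not pass.

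The calls of both TET genes depended on single libraries and on GC content. The *Tet3* call with NSC was lost without vehicle 0 h replicate 2 (adjusted p = 0.0683) or 3 (0.0633) and without NSC replicate 2 (0.0504) or 3 (0.0517), and with scaling by library size only (-0.45, adjusted p = 0.0671). Conversely, *Tet3* with vehicle passed without vehicle 0 h replicate 1 (-0.58, adjusted p = 0.0484) or NSC replicate 1 (0.0492). *Tet2* with NSC passed without vehicle 0 h replicate 2 (-0.59, adjusted p = 0.046) or NSC replicate 1 (-0.61, adjusted p = 0.0325). After correction for GC content, the vehicle comparison gave -0.60 for *Tet2* (adjusted p = 0.0274) and -0.52 for *Tet3* (adjusted p = 0.0232), and the NSC comparison gave -0.78 for *Tet2* (adjusted p = 0.0078) and -0.45 for *Tet3* (adjusted p = 0.0384). These corrected values, like those above, come from the edgeR quasi-likelihood test.

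**Figure D1:**
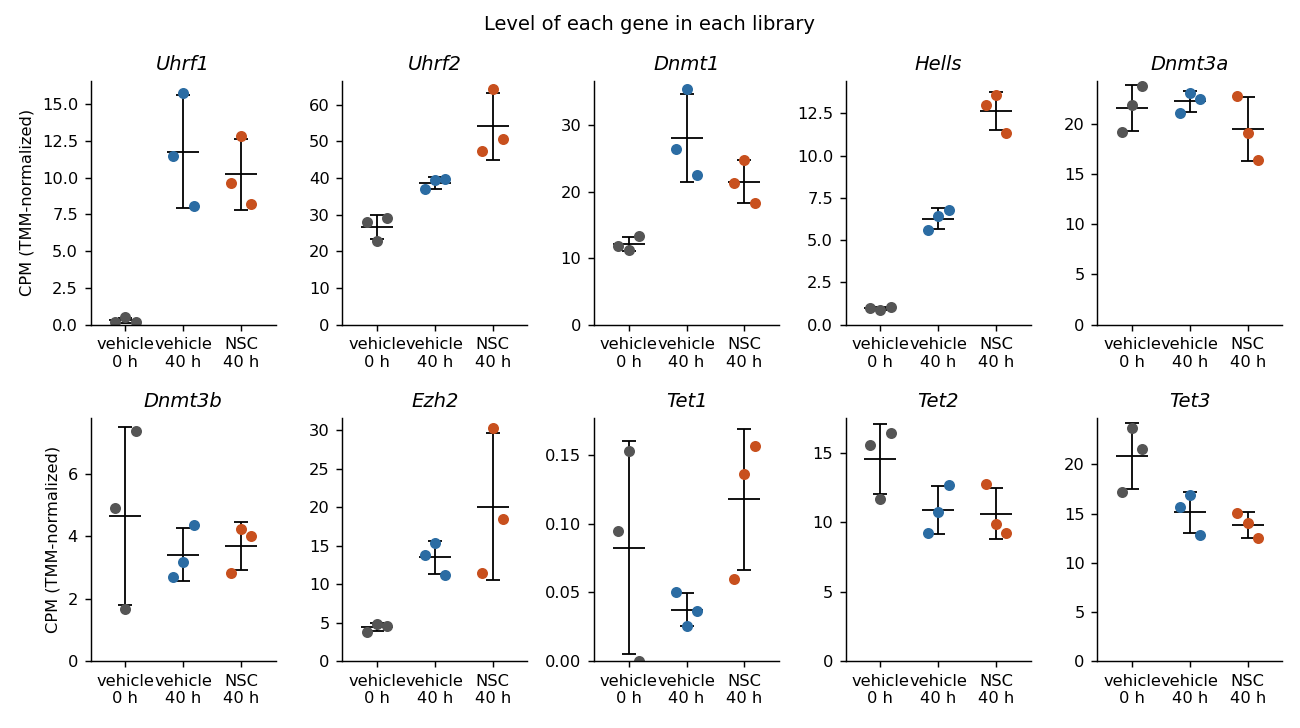
Level of each of the 10 genes in each library, in CPM after TMM scaling, with every vertical axis starting at 0. Points are libraries (replicates 1 to 3 from left to right), the wide bar is the group mean and the capped bars are ±1 SD (n = 3). All 40 h points lie above the vehicle 0 h points for *Uhrf1*, *Uhrf2*, *Dnmt1*, *Hells* and *Ezh2*, and *Tet1* reaches at most 0.157 CPM in any of the 9 libraries. The share of all genes tested that lie apart from vehicle 0 h in this way was not counted.

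Of the 9 genes tested, 5 were called higher and 0 lower with vehicle, where 12.7% of all 15024 genes tested were called higher and 11.0% lower. With NSC, the same 5 genes (*Dnmt1*, *Uhrf1*, *Uhrf2*, *Hells* and *Ezh2*) were called higher and *Tet3* lower, where 18.2% of all genes tested were called higher and 16.5% lower. The median of the 9 genes was 0.54 (vehicle) and 0.82 (NSC) on the log2 scale, against 0.01 over all genes tested in both comparisons. At a log2 fold change over 1.5, *Uhrf1*, *Hells* and *Ezh2* were called in both, although *Ezh2* with vehicle was at 1.41 after GC correction and fell just under that limit without vehicle 40 h replicate 2. Several markers of other liver cells moved with time as well. Summed stellate cell markers were at 222 to 254 CPM at vehicle 0 h, 418 to 543 CPM at vehicle 40 h and 275 to 504 CPM at NSC 40 h, with 5 and 3 of the 8 called higher, and summed cholangiocyte markers were at 50.6 to 56.0, 85.1 to 127 and 89.2 to 131 CPM, with 4 and 3 of 6 tested called higher. Summed neutrophil markers were at 2.17 to 7.33, 8.49 to 16.6 and 11.5 to 19.1 CPM, with 2 and 4 of 5 tested called higher. Summed endothelial markers were at 229 to 237, 141 to 217 and 170 to 290 CPM, with 3 and 1 of 8 called lower, and erythroid markers at 229 to 329, 106 to 186 and 130 to 231 CPM, with 2 and 2 of 7 tested called lower. Among the NSC libraries, replicate 1 had the highest endothelial and stellate sums. Summed lymphocyte markers were at 2.20 to 7.49, 1.33 to 2.15 and 2.44 to 2.86 CPM. None of the 5 tested was called, but all 5 had negative log2 fold changes in both comparisons (median -1.41 and -1.18). All 8 stellate markers were detected in every library, and 1 cholangiocyte marker was at 0 in at least 1 library. Their part in the changes of the 9 genes was not tested.

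NSC was compared with vehicle at 40 h directly, which is also the test of whether the 2 changes from vehicle 0 h differ. None of the 9 genes passed the edgeR quasi-likelihood test, in which 0.0399% of all genes tested, or 6 genes, were called. An unadjusted p under 0.05 was seen for 2 of the 9, *Hells* and *Uhrf2*, and for 2929 of the 15024 genes tested. DESeq2 and edgeR's exact test each called 1, *Hells*. *Hells* was higher with NSC by 1.01 on the log2 scale (standard error 0.18, 95% interval 0.61 to 1.41, edgeR adjusted p = 0.0847, range over 18 alternatives 0.00013 to 0.368). *Uhrf2* was higher by 0.48 (95% interval 0.15 to 0.81, edgeR adjusted p = 0.137). For both, all 3 NSC libraries lay above all 3 vehicle 40 h libraries, as they did for 10.3% of all genes tested. The difference was 0.57 for *Ezh2* (95% interval -0.06 to 1.21) and -0.39 for *Dnmt1* (95% interval -0.79 to 0.02), with overlapping libraries. For *Uhrf1* it was -0.21 (95% interval -0.89 to 0.48), and a difference anywhere within this interval remains possible.

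**Figure D2:**
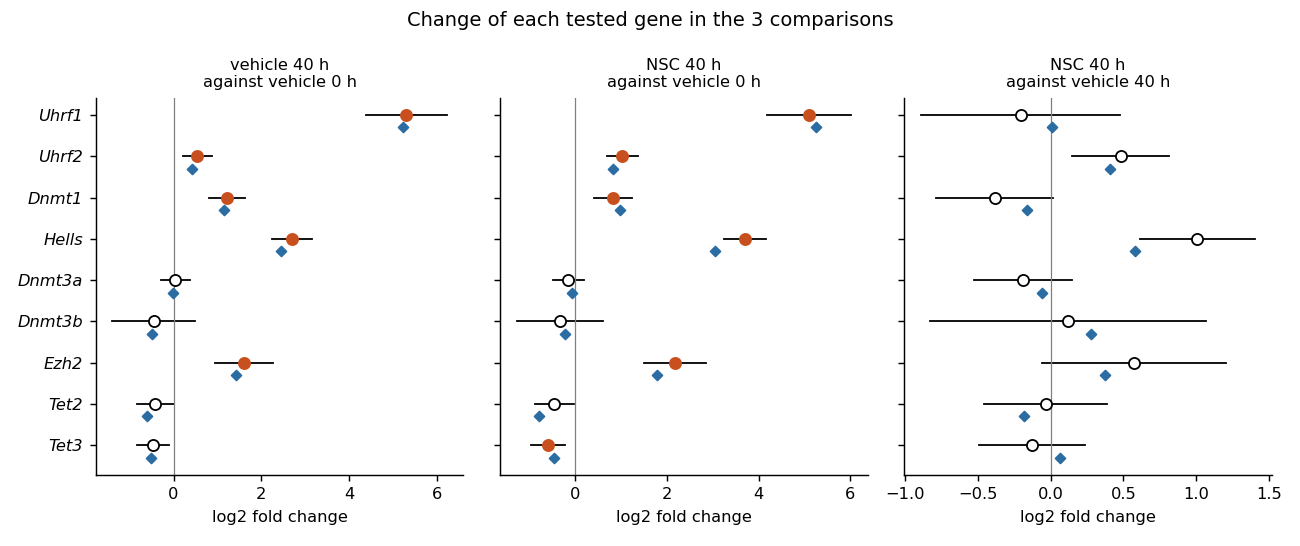
Log2 fold change of each tested gene in the 3 comparisons, from the edgeR quasi-likelihood fit. Circles are the fitted values with their 95% intervals, filled where the adjusted p was under 0.05, and blue diamonds are the values after GC correction. The scale of the third panel is narrower. The 5 rising genes are filled in both comparisons with vehicle 0 h, no circle is filled in the direct comparison, and the diamond of *Hells* there sits at 0.58 against its circle at 1.01.

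GC content and 1 library moved with the direct comparison. Over all tested genes with a known GC content (genes are not independent replicates), the log2 difference between NSC and vehicle had a Spearman correlation of -0.56 with the GC content of the transcript, so genes low in GC were higher with NSC. *Hells* has the lowest GC content of the 10 genes (37.7%) and *Dnmt1* the highest (54.0%), with *Ezh2* at 44.4%, *Tet2* at 45.4%, *Uhrf2* at 47.2% and *Uhrf1* at 53.7%. After correction for GC content the difference was 0.58 for *Hells* (adjusted p = 0.368), 0.41 for *Uhrf2* (adjusted p = 0.393), 0.38 for *Ezh2* (adjusted p = 0.664), -0.16 for *Dnmt1* (adjusted p = 0.725) and 0.01 for *Uhrf1* (adjusted p = 0.993), all by the edgeR quasi-likelihood test. The comparison of NSC with vehicle 0 h carried the same trend (Spearman -0.41), and there the corrected rise of *Hells* was 3.04 in place of 3.71 and that of *Ezh2* 1.79 in place of 2.17.

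The library was NSC replicate 1. Without it, 3 of the 9 genes were called higher with NSC, namely *Hells* (0.99, edgeR adjusted p = 0.0138), *Ezh2* (0.85, edgeR adjusted p = 0.0356) and *Uhrf2* (0.57, edgeR adjusted p = 0.049). Of all 15390 genes tested in that fit, 574 were called higher and 420 lower. In the same fit, 9 of the 10 G2 and M genes and 2 of 12 genes of S phase were called higher with NSC. Of the markers, 3 of 8 stellate and 2 of 6 tested cholangiocyte markers were called lower. Without NSC replicate 2 or 3 none of the 9 was called. Over the alternatives, adjusted p ranged from 0.0356 to 0.808 for *Ezh2* and from 0.049 to 0.393 for *Uhrf2*. The summed level of Kupffer cell and macrophage markers was 152 to 223 CPM at vehicle 0 h, 149 to 272 CPM at vehicle 40 h and 295 to 489 CPM at NSC 40 h, and all 8 were detected in every library. Of the 8, 2 were called higher with vehicle and 5 with NSC against vehicle 0 h, beside 12.7% and 18.2% of all genes tested. Between the treatments 0 were called, and 2 were called without NSC replicate 1. An unadjusted p under 0.05 was seen for 5 of the 8, beside 2929 of all 15024 genes tested. Their part in the differences between the treatments was not tested.

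**Figure D3:**
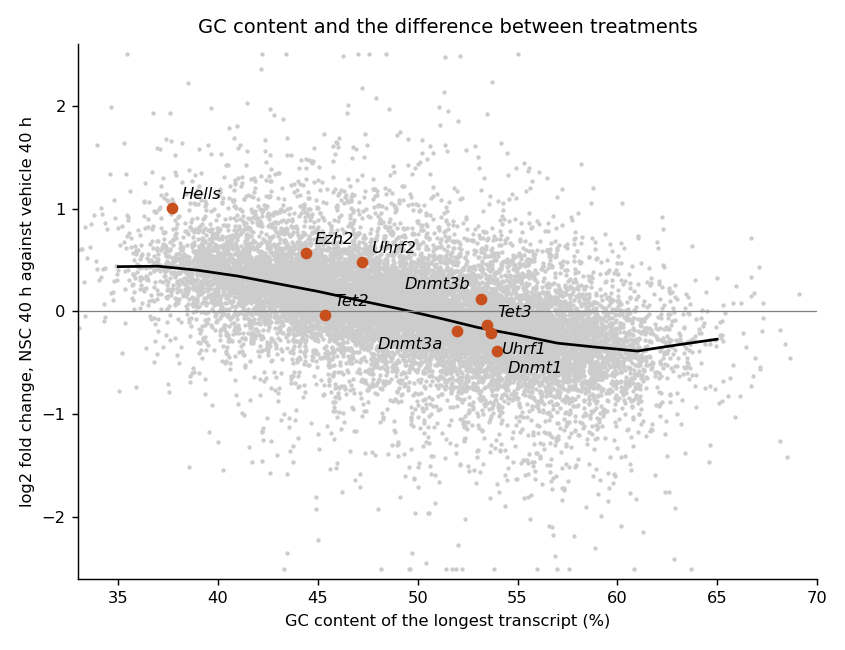
GC content of the longest transcript (%) against the log2 fold change of NSC 40 h against vehicle 40 h, for the tested genes with a known GC content. Grey points are genes (values beyond 2.5 in either direction are drawn at the edge), the line joins medians in bins of GC content with at least 20 genes, and the 9 tested genes are in orange. The line falls over most of its course, a few genes lie outside the range of GC content drawn, and *Hells*, at 37.7% GC, sits at 1.01 and above the line.

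Within a library, the ratio of a pair of genes does not depend on how libraries are scaled to each other. It is still open to the trend with GC content, for which the ratios were not corrected. GC content was 53.7% and 47.2% for *Uhrf1* and *Uhrf2*, and 44.4% and 51.2% for *Ezh2* and *Ezh1*. It was 54.0% and 51.9% for *Dnmt1* and *Dnmt3a*, and 43.1% and 49.8% for *Mat2a* and *Mat1a*. The log2 ratio of *Uhrf1* to *Uhrf2*, in FPKM, was -6.46, -4.44 and -6.18 at vehicle 0 h, -0.67, -0.31 and -1.28 at vehicle 40 h, and -1.28, -1.31 and -1.62 at NSC 40 h. The ratio was thus higher in every 40 h library than in every vehicle 0 h library, by 4.94 with vehicle and 4.29 with NSC, and *Uhrf2* stayed the more abundant transcript per length in all 9 libraries. The log2 ratio of *Ezh2* to *Ezh1*, the other catalytic subunit of PRC2, was -2.02, -1.92 and -1.95 at vehicle 0 h. It was 0.12, 0.09 and -0.16 at vehicle 40 h and 0.07, 1.22 and 0.71 at NSC 40 h, so *Ezh2* was above *Ezh1* in 5 of 6 libraries at 40 h. The log2 ratio of *Dnmt1* to *Dnmt3a* was 0.57 ± 0.14 at vehicle 0 h, 1.71 ± 0.31 at vehicle 40 h and 1.54 ± 0.24 at NSC 40 h (SD, n = 3 each). That of *Mat2a* to *Mat1a*, the 2 genes for the methyl donor synthetase, was -6.38 ± 0.31, -5.37 ± 0.52 and -4.09 ± 1.05 in the same order, with NSC replicate 1 at -5.28 and the other NSC libraries at -3.26 and -3.73. For all 4 ratios the 40 h libraries were above the vehicle 0 h libraries, at p = 0.1 in a two-sided exact permutation test, the smallest p that 3 against 3 allows (adjusted p = 0.15 over 12 tests). Between the treatments the p-values of this exact permutation test lay between 0.2 and 0.5. The ratio of *Tet1* to *Tet2* was not computed because *Tet1* had 0 counts in 1 library.

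**Figure D4:**
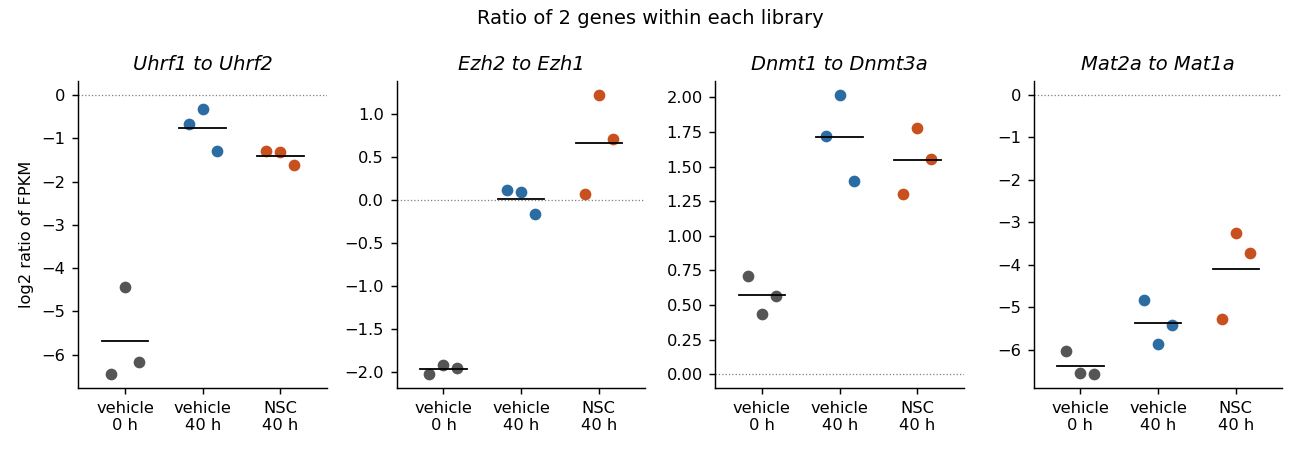
Log2 ratio of the FPKM of 2 genes in the same library, for 4 pairs, without GC correction. Points are libraries, bars are group means (n = 3) and the dotted line marks equal FPKM. The points of *Uhrf1* to *Uhrf2* rise from between -6.46 and -4.44 at vehicle 0 h to between -1.62 and -0.31 at 40 h, and those of *Ezh2* to *Ezh1* rise to between -0.16 and 1.22.

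The rising genes were next set against genes of S phase. The log2 CPM of each gene minus the mean log2 CPM of 12 S phase genes (the MCM helicase, *Pcna*, ribonucleotide reductase, *Tyms* and licensing factors) was taken in every library. All 12 were called higher in both comparisons, and their median change on the log2 scale was 2.08 (vehicle) and 2.30 (NSC). *Uhrf1* rose more than this reference. Relative to it, *Uhrf1* was at -3.75 ± 0.60 at vehicle 0 h, -0.97 ± 0.31 at vehicle 40 h and -1.39 ± 0.18 at NSC 40 h (SD, n = 3 each). *Hells* was at -2.08 ± 0.28, -1.83 ± 0.23 and -1.07 ± 0.15, and its NSC libraries lay above all the others. *Dnmt1* rose less than the reference, going from 1.49 ± 0.24 to 0.30 ± 0.16 with vehicle and to -0.31 ± 0.12 with NSC, with no overlap between any of the 3 groups. *Uhrf2* went from 2.61 ± 0.34 to 0.79 ± 0.17 and 1.01 ± 0.05, and *Ezh2* from 0.05 ± 0.04 to -0.74 ± 0.10 and -0.51 ± 0.53. These relative levels were not corrected for GC content. In the direct comparison, GC correction took *Hells* from 1.01 to 0.58, *Dnmt1* from -0.39 to -0.16 and the S phase median from 0.36 to 0.27. Groups that did not overlap had p = 0.1 in the two-sided exact permutation test (adjusted p = 0.136 over 15 tests), the smallest it allows. Against 10 genes of the G2 and M phases, whose median changes were 6.53 and 7.05, no test was run. *Uhrf1* was at -1.21 to 0.29 relative to them at vehicle 0 h and at -1.60 to -0.96 at vehicle 40 h, and these groups overlapped. At NSC 40 h it was at -0.27 in replicate 1 and at -2.62 and -2.99 in the other libraries, and *Hells* was at 0.16 in replicate 1 and at -2.55 and -2.52.

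Per transcript length, *Uhrf2* had the highest mean level of the 10 genes in all 3 groups, at 2.99 ± 0.38 FPKM at vehicle 0 h, 4.38 ± 0.21 FPKM at vehicle 40 h and 6.67 ± 0.87 FPKM at NSC 40 h (SD, n = 3 each), and at vehicle 40 h it overlapped *Dnmt1* (4.30 ± 0.80 FPKM). At vehicle 0 h it was followed by *Dnmt1* (1.86 FPKM), *Tet3* (1.68 FPKM), *Tet2* (1.53 FPKM), *Dnmt3a* (1.25 FPKM), *Dnmt3b* (0.879 FPKM) and *Ezh2* (0.692 FPKM), each overlapping the next, and then by *Hells* (0.129 FPKM) and *Uhrf1* (0.0661 FPKM), which overlapped each other. At vehicle 40 h *Uhrf1* had reached 2.67 FPKM, below *Uhrf2* and *Dnmt1* and overlapping *Ezh2* (2.12 FPKM), and at NSC 40 h it was at 2.54 FPKM, where it overlapped *Ezh2* (3.41 FPKM). *Dnmt3a*, *Tet2* and *Tet3* had means within 1.15 to 1.30 FPKM in both 40 h groups and overlapped their neighbours among these 3. *Tet1* was last in every group, with means of 0.00254 to 0.00843 FPKM. The annotated antisense genes that share exon bases with any of the 10, *Dnmt3aos* and *Gm26625* (over *Ezh2*), had 3 counts and 1 count over all libraries.

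The genes whose levels most resembled 5 of the 10 were sought by Pearson correlation of log2 CPM over the 9 libraries, which is a description over points that share 3 groups. For *Uhrf1* they were *Clspn* (r = 0.998), *Tagln2*, *Brca1*, *Lig1* and *Frrs1* (r = 0.986). For *Hells* they were *Eda2r* (r = 0.997), *Dtl*, *Pcna*, *Btbd10* and *Pola1* (r = 0.988). Claspin, BRCA1, DNA ligase 1, PCNA and DNA polymerase alpha act at or behind the replication fork. *Ezh2* was closest to *Cep192* (r = 0.993), *Ywhah*, *Tmem194*, *Eri2* and *Nup205* (r = 0.985), and *Dnmt1* to *Tbc1d2b* (r = 0.985), *Slc13a3*, *A2m*, *Xpo5* and *Coro1c* (r = 0.976). *Dnmt3b* had weaker partners, *Rtp3* (r = 0.913), *S1pr1*, *Ppp2r1b*, *Gfod1* and *Pdcl3* (r = 0.889). With the Spearman correlation, 1, 2, 0, 2 and 2 of the 5 genes were shared for *Uhrf1*, *Hells*, *Ezh2*, *Dnmt1* and *Dnmt3b*.

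Of 15 partners of maintenance and de novo methylation, 14 were tested, of which 4 were called higher and 1 lower with vehicle, and 6 higher and 1 lower with NSC. Over all genes tested, 12.7% were called higher and 11.0% lower with vehicle, and 18.2% higher and 16.5% lower with NSC. *Cdca7*, the zinc finger partner that brings HELLS to chromatin, rose by 1.76 and 2.44 on the log2 scale (edgeR adjusted p = 0.00114 and 0.000124). *Lig1*, the ligase of Okazaki fragments, rose by 2.44 and 2.39 (edgeR adjusted p = 1.38e-05 and 1.21e-05), and *Pcna*, the sliding clamp, by 1.18 and 1.55 (edgeR adjusted p = 0.000111 and 1.7e-05). *Uhrf1bp1*, a UHRF1-binding protein gene, fell by 0.58 and 0.68 (edgeR adjusted p = 0.0108 and 0.00339). *Zbtb24* (-0.30 and -0.29) and *Usp7*, the deubiquitinase of DNMT1 and UHRF1 (0.01 and 0.06), did not pass, and *Dnmt3l*, the cofactor of de novo methylation, had 1 count over all libraries. In the direct comparison none of the 14 was called, and *Cdca7* was at 0.68 (edgeR adjusted p = 0.187). An unadjusted p under 0.05 was seen for 4 of the 14, beside 2929 of all 15024 genes tested. Without NSC replicate 1, 1 of the 14 was called. That fit, used for the lists below as well, called 574 of 15390 genes higher and 420 lower.

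Of 14 PRC2 and H3K27 genes, 0 were called higher and 1 lower with vehicle, and 6 higher and 3 lower with NSC. Over all genes tested, these shares were 12.7% and 11.0% with vehicle and 18.2% and 16.5% with NSC. With vehicle, the core subunits *Suz12* (0.40, edgeR adjusted p = 0.0766) and *Eed* (0.30, edgeR adjusted p = 0.166) did not pass, and with NSC they rose by 0.90 (edgeR adjusted p = 0.00105) and 0.80 (edgeR adjusted p = 0.00184). The accessory subunit *Mtf2* rose by 1.07 (edgeR adjusted p = 0.00156) and *Phf19* by 1.22 (edgeR adjusted p = 0.0127) with NSC. *Phf1*, another accessory subunit of the same family, fell by 1.06 and 1.44 (edgeR adjusted p = 0.0015 and 0.000189). *Ezh1* fell by 0.56 with NSC (edgeR adjusted p = 0.0105) and was at -0.38 with vehicle (edgeR adjusted p = 0.0721), the demethylase *Kdm6b* fell by 0.95 with NSC (edgeR adjusted p = 0.00223), and *Jarid2* did not pass in either (-0.42 and -0.52). In the direct comparison none of the 14 was called, with *Suz12* at 0.51, *Eed* at 0.51 and *Kdm6b* at -0.80. An unadjusted p under 0.05 was seen for 6 of the 14, beside 2929 of all 15024 genes tested. Without NSC replicate 1, 3 of the 14 were called, among them *Suz12* (0.61, edgeR adjusted p = 0.0295) and *Kdm6b* (-0.80, edgeR adjusted p = 0.0367). After GC correction 2 and 6 of the 14 were called from vehicle 0 h, beside 4199 and 4547 of all genes tested. The list median went from 0.20 to -0.01 with vehicle and from 0.19 to -0.08 with NSC. With NSC the corrected values were 0.41 for *Suz12*, -0.50 for *Kdm6b* and 0.43 for *Mtf2*, whose call was lost (edgeR adjusted p = 0.0685).

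Among 10 readers of methylated CpG, *Mbd4*, a thymine glycosylase as well, rose by 1.58 and 2.21 (edgeR adjusted p = 0.00365 and 0.000382). With NSC *Zbtb33* (Kaiso) rose by 1.08, and by 0.48 after GC correction. *Mbd6* was at -0.68 with NSC (edgeR adjusted p = 0.0121), a call that was lost after GC correction (-0.08, edgeR adjusted p = 0.729). Among 11 tested partners of demethylation, *Ung*, the uracil glycosylase, rose by 1.45 and 1.01 (edgeR adjusted p = 0.00155 and 0.00726), and *Tdg*, which excises oxidized methylcytosine, was at 0.48 and 0.26 and did not pass (edgeR adjusted p = 0.0685 and 0.274). *Idh1* fell by 0.78 with vehicle. *Lig3* with vehicle (0.42, edgeR adjusted p = 0.0372) and *Xrcc1* with NSC (-0.75, edgeR adjusted p = 0.0466) were called in 9 and 7 of 18 alternatives, the libraries of *Xrcc1* overlapped, and after GC correction neither was called (0.32, edgeR adjusted p = 0.0581, and -0.33, edgeR adjusted p = 0.318). Of 13 heterochromatin genes, 4 were called higher with vehicle and 5 higher and 3 lower with NSC. Over all genes tested, 12.7% were called higher with vehicle, and 18.2% higher and 16.5% lower with NSC. The H3K9 methyltransferase genes *Suv39h1* (1.11 and 1.58, edgeR adjusted p = 0.0388 and 0.00587) and *Suv39h2* (2.14 and 2.74) and the HP1 gene *Cbx5* (0.73 and 1.03) rose in both. *Ehmt2* (-0.64, edgeR adjusted p = 0.0131), *Ehmt1* (-0.59) and *Kdm4b* (-1.04) fell with NSC, and *Ehmt2* was at -0.27 with vehicle (edgeR adjusted p = 0.272). After GC correction the NSC values were 0.57 for *Cbx5*, -0.65 for *Kdm4b* and -0.15 for *Ehmt2*, whose call was lost (edgeR adjusted p = 0.366). The call of *Suv39h1* with vehicle held in 10 of 18 alternatives. Between the treatments, without NSC replicate 1, 1 reader of methylated CpG, 1 partner of demethylation and 4 heterochromatin genes were called.

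Genes of the methyl donor cycle moved in both directions. Of 20 tested, 3 were called higher and 6 lower with vehicle, and 5 higher and 9 lower with NSC. Over all genes tested, these shares were 12.7% and 11.0% with vehicle and 18.2% and 16.5% with NSC. The list median was -0.28 with vehicle and -0.56 with NSC, or -0.35 and -0.24 after GC correction. *Gnmt*, a methyltransferase abundant in liver that uses S-adenosylmethionine, fell by 1.42 and 2.11 (edgeR adjusted p = 0.00535 and 0.00047). *Ahcy*, which clears S-adenosylhomocysteine, fell by 1.04 and 1.36 (edgeR adjusted p = 0.00165 and 0.000257), and *Shmt1* fell by 0.86 and 0.95. *Tyms*, which encodes thymidylate synthase, rose by 1.80 and 2.27 (edgeR adjusted p = 0.00117 and 0.000248). *Mat1a*, the synthetase of the adult hepatocyte, fell by 1.05 with NSC (edgeR adjusted p = 0.0211) and was at -0.35 with vehicle (edgeR adjusted p = 0.446). *Mat2a*, the form of proliferating cells, rose by 1.14 with NSC (edgeR adjusted p = 0.00494) and was at 0.62 with vehicle (edgeR adjusted p = 0.0892). Between the treatments neither passed (-0.70, edgeR adjusted p = 0.239, and 0.52, edgeR adjusted p = 0.274). Without NSC replicate 1, *Mat1a* was lower with NSC by a log2 difference of -1.22 (edgeR adjusted p = 0.00805) and *Mat2a* was at 0.69 (edgeR adjusted p = 0.105), and 5 of the 20 genes were called. The call of *Mat1a* against vehicle 0 h held in 15 of 18 alternatives (edgeR adjusted p up to 0.0845), and *Mat2a* was at 0.71 with NSC after GC correction.

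Of 16 germline genes known to be silenced by promoter methylation in somatic tissue, 15 failed the filter on low counts. Apart from *Slc25a31*, at 48 counts in all and up to 27 in a library, these 15 had at most 9 counts over all 9 libraries. The one tested, *Piwil2*, had log2 fold changes of 0.90 with vehicle (edgeR adjusted p = 0.502) and 0.03 with NSC (edgeR adjusted p = 0.986). The other 15 were not tested, and at these counts a small change of them could not be seen. DNA methylation itself was not measured in this series.

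**Figure D5:**
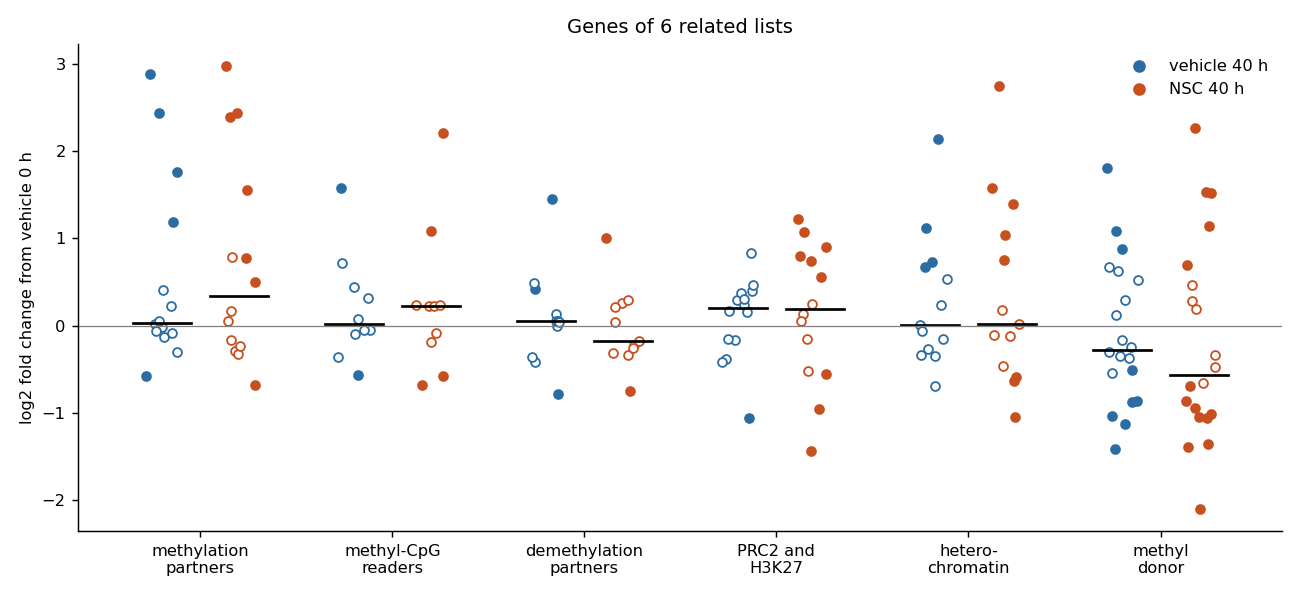
Log2 fold change from vehicle 0 h of the tested genes of 6 related lists, with vehicle 40 h in blue and NSC 40 h in orange. Filled points had an edgeR adjusted p under 0.05, open points did not, and black bars are list medians. The methyl donor list reaches from 2.27 (*Tyms*) to -2.11 (*Gnmt*) with NSC, and both comparisons share the same vehicle 0 h libraries.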

How the data were processed

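Polyadenylated RNA from mouse liver was made into stranded libraries (TruSeq Stranded mRNA). The authors aligned reads with STAR 2.6.1 and counted them per gene with featureCounts of Subread 1.5.1. The labels name the human build hg38, but the deposited gene identifiers and coordinates are those of mouse GRCm38, which is used here. The deposited table gives raw counts per gene and, beside them, FPKM values, which the authors computed from counts, gene length and library total. All 37 mitochondrial genes are listed at 0. Of 43346 genes, 33460 (78.8%) had the same position in GENCODE M21.

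The deposited counts were tested with edgeR 4.0.16 under R 4.3.3 (TMM factors, filterByExpr, robust quasi-likelihood fit of all 9 libraries with group as the only term, Benjamini-Hochberg adjustment over 15024 genes, called at adjusted p under 0.05). Standard errors are the absolute log2 fold change over the square root of F. FPKM was used for levels between genes and ratios. Intervals and the limit for 0 counts (3 counts) cover counting error or library spread only. DESeq2 1.42.0, other normalizations and filters, a replicate block and fits leaving out libraries were alternatives. The GC correction (loess, span 0.5, longest GENCODE M21 transcript, known for 99.2% of tested genes) was chosen after seeing the data, as was leaving out libraries for ratios and relative levels. The fit was tested on simulated data. Tables and figures were made with Python 3.11.15, pandas 2.3.3, SciPy 1.17.1 and matplotlib 3.10.9. Promoter windows are from RefSeq.

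The 10 genes and all lists were chosen with earlier results of these data known. Named are the 10 genes, 20 partners fixed by name, the 2 called genes with the smallest adjusted p per list, comparison and direction, and the 5 genes most like *Uhrf1*, *Dnmt1*, *Hells*, *Ezh2* and *Dnmt3b*. *Slc25a31* and *Kdm6b* in the direct comparison were named after their values were seen. Some genes that this rule names are not reported here. One list gene (Idax) was not matched separately from *Cxxc4*.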

Additional observations from a re-analysis of the deposited data

How the results depend on the processing

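The rises of *Dnmt1*, *Uhrf1*, *Hells* and *Ezh2* from vehicle 0 h kept their direction and call under every alternative run for them, and *Uhrf1* could not be fitted where 10 counts were required in every library. With a log2 fold change over 1.5, 3 genes were called in each comparison with vehicle 0 h, with 1085 and 1222 genes in all. Leaving out 1 library gave 2285 to 4538 genes called with vehicle (4 to 6 of the 9 genes) against 3564 with all libraries.

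The direct comparison of NSC with vehicle depended most on the processing. Of the 9 genes, 1 was called with DESeq2, with edgeR's exact test and with all genes of at least 1 count, and 0 to 3 with 1 library left out (3 without NSC replicate 1). Over all genes the count was 733 with DESeq2, 454 with the exact test, 221 with at least 1 count, 11 with the replicate block, 3 at a log2 fold change over 1.5, 1 with library size only, 0 with GC correction, and 0 to 994 with 1 library left out (994 without NSC replicate 1, 111 without vehicle replicate 3), against 6. The cause was not tested.

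Directions that turned belonged to values that did not pass. With GC correction these were *Dnmt3a* with vehicle (-0.015) and, between treatments, *Uhrf1* (0.0087) and *Tet3* (0.066). With library size only, which moved the median of all genes between treatments to 0.14, *Tet2* (0.10) and *Tet3* (0.00088) turned. With 1 library left out, the ranges were -0.038 to 0.12 for *Dnmt3a* and -0.85 to 0.051 for *Dnmt3b* with vehicle, -0.74 to 0.17 for *Dnmt3b* with NSC, and, between treatments, -0.030 to 0.33 for *Dnmt3b*, -0.19 to 0.084 for *Tet2* and -0.42 to 0.060 for *Uhrf1*. Against the G2 and M reference, the relative change was -0.78 and -1.41 for *Uhrf1* and -3.30 and -2.75 for *Hells* with vehicle and NSC. The difference of *Ezh2* relative to S phase between treatments lay between -0.013 and 0.52 with 1 library left out. With Spearman correlation, 1, 2, 2, 0 and 2 of the 5 most similar genes were shared for *Uhrf1*, *Dnmt1*, *Hells*, *Ezh2* and *Dnmt3b*.

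The labels do not say that replicate numbers pair the libraries. Same-numbered libraries had correlations of -0.048 to 0.13 in their deviations, with 1 pair over 0.1, and, as a hint from the data only, 4, 5 and 4 of 6 libraries correlated best with their own number in the 3 comparisons. The replicate block left 5, 6 and 0 of the 9 genes called, with 3578, 5178 and 11 genes in all. With 3 libraries a group, exact permutation tests could not go below 0.1.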
